A study of Mus musculus with 6 samples.

Results

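The 35 genes described here belong to the amino acid and endoplasmic reticulum (ER) stress responses. They were chosen by symbol from a list of ATF4 targets and unfolded protein response genes, and all 35 were found among 55471 gene identifiers and were among the 15091 genes tested. They fell into an ATF4 branch of 15 genes, 4 ER stress sensors and transcription factors, 13 ER chaperones and folding factors, and 3 genes of ER-associated degradation. The sequenced RNA came from epiblast stem cells of the mouse, pluripotent cells that resemble the embryo's epiblast shortly before gastrulation. They had been aggregated into embryoid bodies and differentiated in serum for 2 days.

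The 6 libraries formed 2 groups of 3. One group was labelled Mixl1 KO, a knockout of the primitive streak homeobox gene Mixl1. The other, labelled Mixl1 induced, came from a line with inducible Mixl1 that received doxycycline at 1 µg/mL for the last 24 h. Both had been grown on irradiated fibroblast feeder cells, per the labels' protocols. The labels do not say whether the knockout cells received the drug, whether either line was a single clone, or how the lines are related. Cell line, Mixl1 and possibly the drug therefore differ together and cannot be told apart. The labels call the libraries triplicates without naming separate cultures. The p-values therefore cover the spread among these 6 libraries, which may be technical.

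Both pathways respond to stress on protein synthesis. Shortage of amino acids or misfolded protein in the ER activates kinases that phosphorylate the initiation factor eIF2, which lowers general translation and favours translation of ATF4, a transcription factor for amino acid synthesis and transport genes. In the ER itself, the sensors ATF6, IRE1 and PERK raise production of chaperones and of the machinery that removes misfolded protein. ATF4 is set largely by translation and XBP1 activity by splicing of its mRNA, and read counts per gene measure neither.

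Between 17490426 and 21026423 reads per library were counted on genes. The targeted gene, Mixl1, had 817, 668 and 812 reads in the knockout libraries and 8860, 7720 and 7861 in the induced libraries, a log2 fold change of 3.44 (SE 0.05, adjusted p = 1.66e-22 by edgeR). These are counts over the whole gene and do not show which exons were read. All 12 epiblast stem cell markers were detected, with Pou5f1 between 782 and 1335 CPM (reads per 1000000 of the scaled library size) in every library. All 12 also passed an adjusted p of 0.05 (edgeR), 7 higher and 5 lower in the induced libraries. Their log2 fold changes ran from -1.59 to 1.86. The 12 macrophage markers were all lower in the induced libraries, where their summed level was 49.4 to 61.3 CPM, against 327 to 471 CPM in the knockout libraries. The summed level of 12 fibroblast markers was 971 to 1133 CPM in the knockout libraries and 777 to 974 CPM in the induced libraries. That of 12 visceral endoderm markers was 573 to 626 CPM and 224 to 276 CPM, with Ttr and Hnf4a at 0 reads throughout. Within the fibroblast and visceral endoderm lists single genes went both ways. Among the fibroblast markers 3 were higher and 5 lower, and of 8 visceral endoderm markers tested 1 was higher and 4 were lower. The shares that passed in these lists, 66.7% and 62.5%, were near the 62.6% of all tested genes. The part of these cell types in the differences below was not tested. In such bulk samples, fewer cells of a type and less RNA per cell cannot be told apart.

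Different sequence elements are known for the promoters of the 2 branches, and matches to them in the members are shown here. Not every gene of a branch held its element. The ATF4 element CARE was searched as TGATGNAA, and the ER stress element ERSE, bound by NF-Y and ATF6, as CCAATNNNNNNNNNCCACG. Its variant ERSE-II was searched as ATTGGNCCACG and the XBP1 element UPRE as TGACGTGG. Both strands were searched in the RefSeq windows (build GRCm38.p6) from 250 bases before to 50 bases after a gene's start. A window was found for 32 of the 35 genes, all but Atf6, Hyou1 and Manf. ERSE and ERSE-II share the end CCACG, which UPRE holds on the opposite strand.

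An ERSE was found in 7 of the 11 chaperone genes with a window, against 0.119% of all 32851 windows. None of the 15 ATF4 branch genes held one. In the lines below, capitals mark CCAAT and CCACG, and each sequence reads 5′ to 3′ on the strand given. Dnajc3 encodes a co-chaperone of BiP, Pdia6 a disulfide isomerase, and Canx and Calr the lectin chaperones calnexin and calreticulin. Hspa5 encodes BiP, the main HSP70 of the ER, and Hsp90b1 its HSP90, GRP94. Creld2 encodes a small ER protein linked to disulfide exchange.
Dnajc3 (chr14:118937822-118937850, plus): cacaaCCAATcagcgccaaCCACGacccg
Pdia6 (chr12:17266486-17266514, plus): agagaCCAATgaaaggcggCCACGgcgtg
Canx (chr11:50325795-50325823, minus): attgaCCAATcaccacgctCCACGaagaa
Calr (chr8:84847070-84847098, plus): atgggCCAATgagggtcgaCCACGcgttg
Hspa5 (chr2:34772020-34772048, plus): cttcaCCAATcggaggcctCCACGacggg
Hsp90b1, first (chr10:86705633-86705661, minus): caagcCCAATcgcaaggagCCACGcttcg
Hsp90b1, second (chr10:86705528-86705556, plus): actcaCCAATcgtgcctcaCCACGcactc
Creld2 (chr15:88819515-88819543, minus): gtggaCCAATtgaggctcgCCACGagaag

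A CARE was found in 5 of the 15 ATF4 branch genes and in Herpud1, against 3.97% of all windows. None of the 11 chaperone windows held one. Herpud1, which encodes a membrane protein of ER-associated degradation, also held the only ERSE-II among the members, against 0.0365% of all windows. No member held a UPRE, which 0.676% of windows do. Capitals mark the fixed bases of each motif. Pycr1 makes proline, Asns makes asparagine, Trib3 encodes a pseudokinase that inhibits ATF4, Chac1 an enzyme that degrades glutathione, and Vldlr a lipoprotein receptor.
Pycr1 (chr11:120643834-120643861, minus): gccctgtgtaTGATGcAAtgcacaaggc
Asns (chr6:7693215-7693242, minus): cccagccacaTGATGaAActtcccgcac
Trib3 (chr2:152344029-152344056, plus): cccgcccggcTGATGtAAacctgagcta
Chac1 (chr2:119351039-119351066, minus): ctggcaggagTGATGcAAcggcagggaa
Vldlr (chr19:27216810-27216837, minus): ctaggagcgcTGATGcAActattgctgc
Herpud1, CARE (chr8:94386307-94386334, minus): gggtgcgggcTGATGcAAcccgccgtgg
Herpud1, ERSE-II (chr8:94386368-94386396, plus): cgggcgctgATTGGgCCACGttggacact

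**Figure D1:**
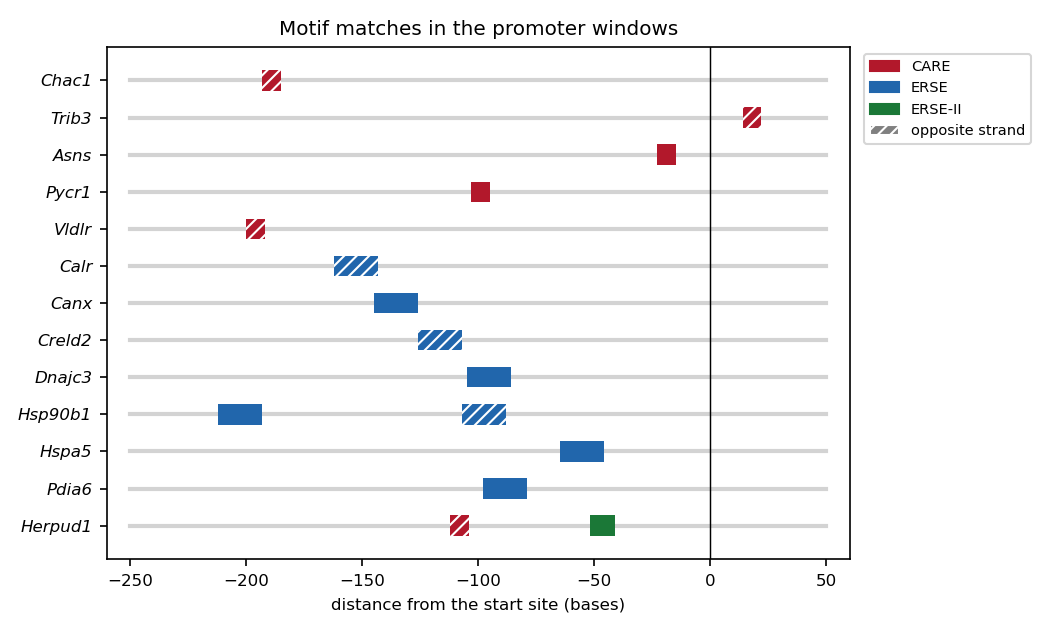
Matches to CARE, ERSE and ERSE-II in the promoter windows of the 13 members that hold one; the horizontal axis is the distance from the RefSeq start site in bases, grey lines are the windows, and hatched boxes lie on the strand opposite to the gene. The ERSE matches lie before the RefSeq start site in all 7 genes that hold one, and the CARE of Trib3 lies 15 bases after it. By the GENCODE coordinates, the matches of Hspa5, Asns and Vldlr lie inside the gene and that of Trib3 lies before it.

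The longer promoter stretches of Hsp90b1, which holds an ERSE in each orientation and was picked for that after its sequence was seen, and of Pycr1, the member with the largest fold change, give these motifs their context. Bases that GENCODE places inside the gene were left off. Where a motif lies on the opposite strand, its capitals read as the reverse complement.
Hsp90b1 (chr10:86705510-86705694, minus): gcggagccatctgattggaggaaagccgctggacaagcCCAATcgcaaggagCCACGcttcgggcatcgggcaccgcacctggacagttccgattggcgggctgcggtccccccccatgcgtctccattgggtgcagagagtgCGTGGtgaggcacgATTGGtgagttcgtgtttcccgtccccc
Pycr1 (chr11:120643770-120643998, minus): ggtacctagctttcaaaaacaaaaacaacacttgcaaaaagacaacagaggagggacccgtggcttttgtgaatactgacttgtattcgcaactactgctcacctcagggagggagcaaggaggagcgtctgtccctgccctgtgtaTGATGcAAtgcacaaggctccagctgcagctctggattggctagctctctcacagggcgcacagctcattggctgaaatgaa

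The comparison asked which of these transcripts differed between the 2 groups, and whether the ATF4 branch and the ER chaperones differ in the same direction. Of the 15 ATF4 branch genes, 8 were lower, 3 were higher and 4 did not pass an adjusted p of 0.05 (edgeR quasi-likelihood test). Of the 13 ER chaperones and folding factors, 11 were higher, none was lower and 2 did not pass. Among all 15091 tested genes 62.6% passed, 31.0% higher and 31.6% lower. A call as such was therefore common, and 53.3% of the ATF4 branch was lower and 84.6% of the chaperones were higher. The median log2 fold change, induced over knockout, was -0.27 in the ATF4 branch, 0.20 in the chaperones and 0.0038 over all tested genes. At an unadjusted p of 0.05, and by DESeq2 and limma-voom, again 0 chaperones were lower. These counts and medians describe the lists, and no test was made over members.

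**Figure D2:**
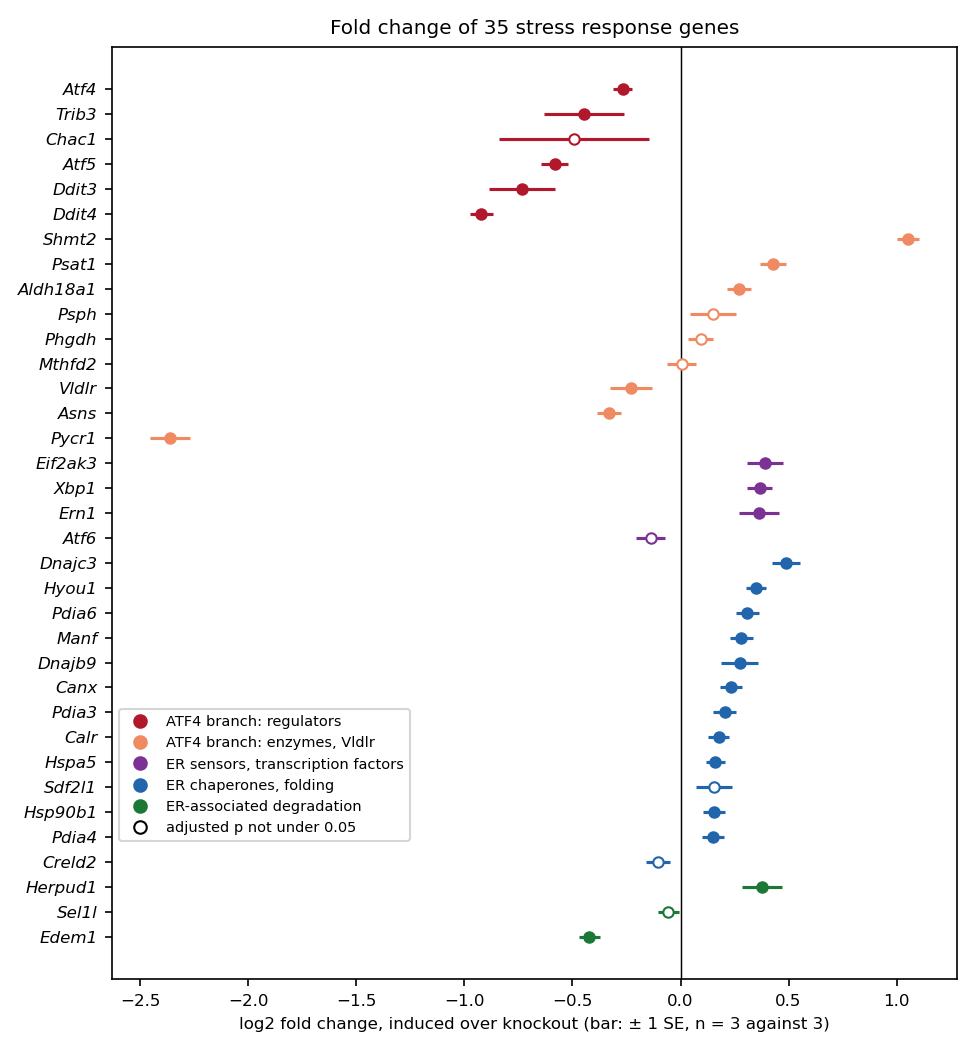
Induced over knockout log2 fold changes of the 35 genes, each with a bar of 1 standard error to each side (3 libraries against 3); colours give the role, and open points did not pass an adjusted p of 0.05. The chaperones lie within a narrow band, from -0.10 for Creld2 to 0.49 for Dnajc3, while the ATF4 branch spans -2.36 for Pycr1 to 1.05 for Shmt2.

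Transcripts of the ATF4 branch's regulators were lower in the induced libraries, 5 of 6 having passed by edgeR and by limma-voom and 4 by DESeq2, where Trib3 did not pass. By each of these tools 0 were higher, also at an unadjusted p of 0.05. Atf4 itself had 5315, 4700 and 4665 reads in the knockout libraries and 4333, 3716 and 3908 in the induced libraries, or 259.3, 259.0 and 245.5 CPM against 208.9, 212.3 and 213.4 CPM. The groups did not overlap, and the knockout mean was 1.20-fold the induced mean (log2 fold change -0.27, SE 0.04, adjusted p = 1.53e-05). Atf4 lies on chromosome 15 (mm10, from 80255184 to 80257541, plus strand). The 596 tested genes of that chromosome had a median log2 fold change of -0.33, the lowest of any chromosome with at least 100 tested genes, so Atf4 differed from this median by 0.06. Creld2 was the only other member on chromosome 15. The chromosomes of the other members had medians from -0.07 (chromosome 1) to 0.08 (chromosome 6).

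Ddit4 had the largest fall among the regulators. It encodes REDD1, a stress-induced inhibitor of mTORC1, and is known to respond to hypoxia and glucocorticoids as well as to ATF4. Its level was 126.7, 119.5 and 122.2 CPM in the knockout libraries and 61.1, 63.2 and 70.3 CPM in the induced libraries. All 3 induced libraries lay well below the knockout libraries, at 0.53-fold on average (log2 fold change -0.92, SE 0.05, adjusted p = 2.27e-12). Atf5, a paralogue of Atf4 that is likewise controlled by translation, went from 64.7, 58.1 and 59.1 CPM to 41.7, 37.3 and 42.5 CPM. Its groups did not overlap either (log2 fold change -0.58, SE 0.06, adjusted p = 5.43e-08).

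The effector genes of a strong stress response were at low levels in both groups. Ddit3, which encodes the pro-apoptotic factor CHOP, had 111, 110 and 104 reads in the knockout libraries and 72, 65 and 55 in the induced libraries. That is 5.65 ± 0.36 against 3.40 ± 0.36 CPM (SD, n = 3), with no overlap and a log2 fold change of -0.73 (SE 0.15, adjusted p = 0.000247). With unstranded counts it was -0.35 (adjusted p = 0.0295, edgeR). Trib3 had 58, 61 and 67 reads against 48, 45 and 41, a log2 fold change of -0.45 that was near the threshold (SE 0.19, adjusted p = 0.0424). Its call was lost without knockout replicate 2 or 3 and without any 1 of the 3 induced replicates, with adjusted p from 0.0525 to 0.121 by edgeR, as well as without the filter on low counts (0.0709, edgeR) and by DESeq2 (0.123). Chac1 had 21, 31 and 22 reads against 30, 8 and 14, so its groups overlapped. Induced replicate 1 had nearly as many Chac1 reads as the highest knockout library, and without it the log2 fold change moved from -0.49 (adjusted p = 0.228) to -1.06 (adjusted p = 0.0227, edgeR). It was -0.19 without induced replicate 2 and -0.25 without knockout replicate 2 (adjusted p = 0.654 and 0.596, edgeR), so single libraries set the size of this value.

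The enzymes of amino acid and one-carbon metabolism went both ways. With Vldlr they were 9 genes, of which 3 were higher and 3 lower. These shares, 33.3% each, were near those of all tested genes (31.0% higher and 31.6% lower). The median log2 fold change of the 9 genes was 0.09, against -0.54 for the 6 regulators of the branch. Pycr1, which encodes the mitochondrial enzyme of the last step of proline synthesis, had the largest change of all 35 genes. It had 823, 751 and 878 reads in the knockout libraries and 161, 133 and 174 in the induced libraries, or 40.15, 41.4 and 46.2 CPM against 7.76, 7.60 and 9.50 CPM. All 3 induced libraries lay far below the knockout libraries, and the knockout level was 5.14-fold the induced level (log2 fold change -2.36, SE 0.09, adjusted p = 1.03e-15). An earlier enzyme of the pathway went the other way, as Aldh18a1, which reduces glutamate towards proline, rose from 57.8 ± 1.60 to 69.7 ± 3.23 CPM (n = 3, ± SD), a log2 fold change of 0.27. Pycrl, a related reductase gene on chromosome 15, fell by 0.39 on the log2 scale.

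Shmt2 had the largest rise of the 35 genes. It encodes the mitochondrial serine hydroxymethyltransferase, which splits serine into glycine and a one-carbon unit. Its level was 166.5, 164.2 and 147.3 CPM in the knockout libraries and 336.2, 317.2 and 336.9 CPM in the induced libraries. The groups were far apart and the induced level was 2.07-fold higher (log2 fold change 1.05, SE 0.05, adjusted p = 4.47e-14). Mthfd2, the next mitochondrial enzyme of the folate pathway and, like Shmt2, a target of ATF4, was at 39.5 ± 3.27 and 39.7 ± 1.45 CPM (n = 3, ± SD), a log2 fold change of 0.01 (SE 0.07, adjusted p = 0.948). Its sign changed with the scaling and the filter. Shmt2 and Pycr1 were the only members with a called change of at least 2-fold.

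Of the 3 enzymes that make serine from a glycolytic intermediate, only the middle one passed. Psat1, the aminotransferase, rose from 133.7 ± 6.38 to 179.9 ± 16.9 CPM (n = 3, ± SD), a log2 fold change of 0.43 (SE 0.06). Phgdh, the first enzyme, was at 120.3 and 128.5 CPM with overlapping groups (log2 fold change 0.09, adjusted p = 0.162). Psph, the phosphatase of the last step, was at 12.9 and 14.4 CPM (0.15, adjusted p = 0.219). Asns, the asparagine synthetase and a much used readout of ATF4, fell from 68.5 ± 2.20 to 54.5 ± 1.25 CPM (n = 3, ± SD), a log2 fold change of -0.33 (SE 0.05, adjusted p = 1.31e-05). Vldlr fell from 15.8 to 13.5 CPM (log2 fold change -0.23) with overlapping groups. Its adjusted p was 0.0456 by edgeR and above 0.05 without the filter on low counts, with unstranded counts, by DESeq2, and without knockout replicate 1 or 2 or induced replicate 2 or 3.

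**Figure D3:**
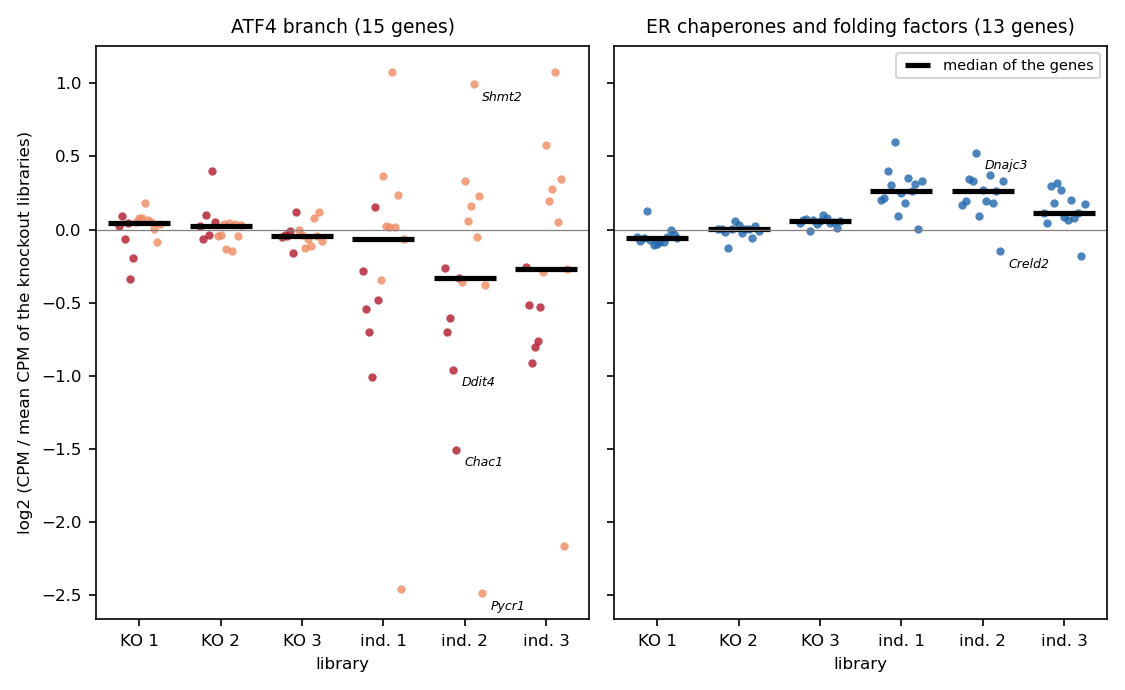
Level of each gene in each library on the log2 scale, as the ratio of its CPM to the mean CPM of the knockout libraries, for the ATF4 branch (dark red, regulators; light red, enzymes and Vldlr) and the ER chaperones and folding factors (blue); black bars are medians over the genes. The chaperone median was 0.26, 0.27 and 0.11 in the induced libraries, and the ATF4 branch median -0.06, -0.33 and -0.27. In the knockout libraries the chaperone median was -0.06, 0.0024 and 0.06, and the ATF4 branch median 0.05, 0.02 and -0.04. For the ATF4 branch, induced replicate 1 thus lay close to knockout replicate 3.

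The 11 called ER chaperones were all higher, each by less than 2-fold. Calr, the most abundant member per kilobase of exons, rose from 944.9 ± 31.8 to 1068 ± 67.4 CPM (n = 3, ± SD), a log2 fold change of 0.18. Hspa5 was at 839.6, 873.1 and 899.5 CPM in the knockout libraries and 1001, 979.2 and 941.9 CPM in the induced libraries. The groups did not overlap, but the gap between them was small next to that of Pycr1 or Shmt2. The induced level of Hspa5 was 1.12-fold the knockout level (log2 fold change 0.16, SE 0.05, adjusted p = 0.00352). Hsp90b1 and Pdia4, a further disulfide isomerase, had similar log2 fold changes of 0.15 each, and their groups overlapped. Both calls were lost without knockout replicate 1 and without induced replicate 1 or 2, with adjusted p from 0.0552 to 0.142 by edgeR.

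The remaining called chaperone genes had log2 fold changes from 0.20 to 0.49. Dnajc3, which encodes the co-chaperone p58IPK, also known as an inhibitor of eIF2 kinases, rose from 51.0 ± 2.35 to 71.4 ± 7.02 CPM (n = 3, ± SD), a log2 fold change of 0.49 (SE 0.07, adjusted p = 1.75e-06). Hyou1, a nucleotide exchange factor for BiP, rose from 303.9 ± 14.4 to 386.9 ± 14.1 CPM (log2 fold change 0.35). Dnajb9, a co-chaperone that restrains the sensor IRE1, rose by 0.27 on the log2 scale, and Manf, a secreted stress-induced factor that binds BiP, by 0.28. Without knockout replicate 2 the adjusted p of Dnajb9 was 0.0508 (edgeR). Pdia6 and Pdia3, the disulfide isomerases, had log2 fold changes of 0.31 and 0.20, and Canx had 0.23.

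Sdf2l1, a BiP cofactor, and Creld2 did not pass. Sdf2l1 was at 19.8 and 22.0 CPM (log2 fold change 0.16, SE 0.08, adjusted p = 0.105), with groups that did not overlap. Creld2 was at 74.9 and 69.7 CPM (-0.10, SE 0.06, adjusted p = 0.115). It had the only negative estimate among the chaperones and lies on chromosome 15, whose median was -0.33. The 2 groups were fully apart for 10 of the 13 chaperones and 10 of the 15 ATF4 branch genes, while 67.1% of all tested genes had groups that did not overlap.

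Genes of each branch partly shared a ranking of the libraries within a group. Knockout replicate 1 had the lowest level of its group for 11 of the 13 chaperones, and induced replicate 3 for 12 of the 13. In the ATF4 branch the same libraries were highest for 9 and 11 of the 15 genes, and lowest for 4 and 2. Leaving out each library in turn left 9 to 11 chaperones called higher, and the median log2 fold change between 0.15 and 0.26. Without induced replicate 1, Creld2 was called lower (log2 fold change -0.16, adjusted p = 0.0255, edgeR).

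The sensors were less abundant and 3 of the 4 were higher, with 0 lower by edgeR, by DESeq2, by limma-voom or at an unadjusted p of 0.05. Xbp1, the transcription factor gene whose mRNA is spliced by IRE1, was at 37.7, 37.5 and 38.1 CPM in the knockout libraries and 48.8, 49.4 and 47.7 CPM in the induced libraries. Both groups were tight and well apart (log2 fold change 0.37, SE 0.06, adjusted p = 9.54e-06). Ern1, which encodes IRE1 alpha, rose from 14.03 ± 1.39 to 18.0 ± 0.55 CPM (n = 3, ± SD), a log2 fold change of 0.36. Eif2ak3, which encodes PERK, rose from 20.1 ± 0.41 to 26.4 ± 2.98 CPM (log2 fold change 0.39). Atf6 had a log2 fold change of -0.14 and did not pass (SE 0.07, adjusted p = 0.0844), with overlapping groups. It was called lower without knockout replicate 2 (-0.18, adjusted p = 0.0462), without induced replicate 1 (-0.21, adjusted p = 0.0211) and with the replicate number as a block (adjusted p = 0.0492), all by edgeR.

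The 3 members of ER-associated degradation each did something different. Herpud1 rose from 14.8 ± 0.47 to 19.2 ± 2.14 CPM (n = 3, ± SD), a log2 fold change of 0.38 (adjusted p = 0.00129). Edem1, which helps take mannose-trimmed glycoproteins out of folding, fell from 112.3 ± 3.24 to 83.9 ± 3.70 CPM (log2 fold change -0.42, SE 0.05, adjusted p = 1.91e-07). Sel1l, the adaptor of the HRD1 ubiquitin ligase, was at 147.8 and 142.1 CPM (-0.06, adjusted p = 0.335).

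Levels can be compared between genes once divided by exon length. In the knockout libraries the chaperones ran from 6.81 (Dnajb9) to 328 CPM per kb (Calr), with Pdia3 at 258, Hsp90b1 at 211 and Hspa5 at 206. The sensors lay between 1.72 (Ern1) and 11.6 (Xbp1). The ATF4 branch ran from 0.79 for Chac1 and 1.52 for Trib3 to 70.0 for Ddit4 and 108 for Atf4, below the most abundant chaperones. These lengths are unions of all annotated exons, so genes with rarely used exons come out too low.

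**Figure D4:**
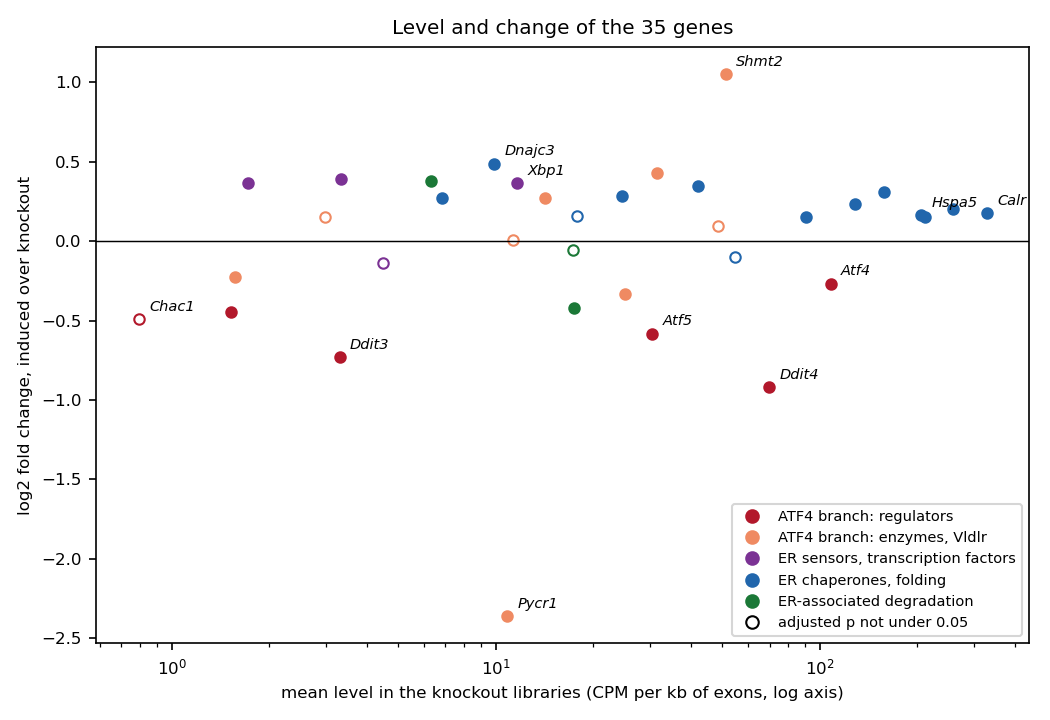
Mean level of each of the 35 genes in the knockout libraries (horizontal, CPM per kilobase of exons on a log axis) against its log2 fold change, induced over knockout (vertical); colours give the role, and open points did not pass an adjusted p of 0.05. The most abundant members, Calr, Pdia3, Hsp90b1 and Hspa5, had log2 fold changes between 0.15 and 0.20.

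The fold changes were also set beside the motifs. The 7 chaperone genes with an ERSE had a median log2 fold change of 0.18, and so did the 4 with a window and no match (Dnajb9, Sdf2l1, Pdia3 and Pdia4). Among 11 further tested genes with an ERSE, 5 were higher and 5 were lower. In the ATF4 branch, 4 of the 5 genes with a CARE were lower and Chac1 did not pass, while of the 10 without a match 4 were lower and 3 higher. Of those 4 with a CARE, Trib3 and Vldlr lost their calls by DESeq2, without the filter on low counts, and without knockout replicate 2 or induced replicate 2 or 3, which leaves 2 of 5. Among 282 other tested genes with a CARE, 40.4% were lower and 27.7% higher, against 31.6% and 31.0% of all tested genes. No test was made of these shares, and a match does not show that a factor bound there.

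Other genes of the ATF4 response were mixed. Of 14 further targets tested, 6 were lower and 4 higher. Slc7a11, the cystine transporter, had a log2 fold change of -2.15, and Cth, which makes cysteine from cystathionine, fell from 73.5, 71.5 and 93.1 CPM to 20.6, 20.1 and 23.1 CPM (log2 fold change -1.90). Got1, an aspartate aminotransferase, and Eif4ebp1, a repressor of translation initiation, each rose by 0.20 on the log2 scale. Of 11 amino acid transporters, 5 were higher and 4 lower, with the leucine transporter Slc7a5 at 1.07 and Slc1a5 at 0.51 against Slc7a11 and Slc1a4 at -2.15 and -0.80.

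Enzymes around the members' pathways also went both ways. Of 22 further genes of serine, glycine, proline and folate metabolism, 10 were higher and 8 lower. Gldc and Amt, both of the glycine cleavage system that breaks down the glycine made by SHMT2, had log2 fold changes of 1.24 and 1.03. Oat, which links ornithine to proline precursors, had -0.79. Of 20 cytosolic tRNA synthetase genes, a class that includes many ATF4 targets, 9 were higher and 4 lower, with Qars at 0.67, Vars at 0.65, Tars at -0.32 and Wars at -0.28. Tars lies on chromosome 15.

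The list of eIF2 subunits, their kinases and phosphatase subunits, the exchange factor eIF2B and the adaptor Nck1 held 14 genes, of which 7 were higher and 1 was lower. The lower one was Ppp1r15a, the stress-induced phosphatase subunit GADD34 and itself an ATF4 target, at -0.25. Eif2b5 and Eif2s3x, subunits of the exchange factor and of eIF2, had log2 fold changes of 0.44 and 0.50. Eif2s3x has a close copy on the Y chromosome, and reads mapping equally well to both were not counted.

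Among the wider ER machinery, most of the folding and redox genes and of the translocon genes were higher, and the lists for degradation and signalling were mixed. Of 24 further ER folding and redox genes, 18 were higher and 3 lower. Txndc5, a disulfide isomerase, rose from 215.4 ± 2.35 to 361.4 ± 14.4 CPM (n = 3, ± SD), a log2 fold change of 0.75, and Prdx4, an ER peroxidase, had 0.90. Sil1 and Cnpy3 had -0.56 and -0.27. Of 23 genes of the translocon, signal peptidase and TRAP complex, 15 were higher and 0 lower by edgeR, at an unadjusted p of 0.05, and by DESeq2 and limma-voom, with Sec61a1 at 0.48 and Ssr3 at 0.40. Of 19 further genes of ER-associated degradation, 9 were higher by edgeR (6 by DESeq2) and 4 lower, with Aup1 at 0.33, Ufd1 at 0.31, Edem2 at -0.33 and Os9 at -0.26. These 4 were named for their small p, and the log2 fold changes of this list reached down to -1.19. In it 1 gene had a called change of at least 2-fold. Of 14 other sensor and signal genes tested, 4 were higher, including Creb3l1 (0.64) and Bcl2l11 (0.43), and 2 lower, Creb3l2 (-0.33) and Map3k5 (-0.62).

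Chaperones of other compartments had median log2 fold changes nearer to that of all tested genes (0.0038). The median was 0.03 in the cytosolic list and 0.0052 in the mitochondrial list. The shares higher and lower were 33.3% and 20.0% in the cytosolic list and 45.5% and 9.09% in the mitochondrial list. Of all tested genes 31.0% were higher and 31.6% lower. Of 15 cytosolic heat shock genes, 5 were higher and 3 lower, with Bag3 at 0.76 and Hsp90ab1 at 0.36 against Hsp90aa1 at -0.42 and Cryab at -1.96. Of 11 mitochondrial chaperone and protease genes, 5 were higher and 1 lower, with Hspd1 at 0.43, Htra2 at 0.56 and Clpp at -0.30. Transcripts of the mitochondrial genome moved the other way, 7 of 10 tested having fallen and 0 having risen by edgeR, against 1 at an unadjusted p of 0.05 and 1 by DESeq2 and by limma-voom. Their summed level was 16690 to 18440 CPM in the induced libraries and 24220 to 29670 CPM in the knockout libraries. The part of this in the other results was not tested.

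**Figure D5:**
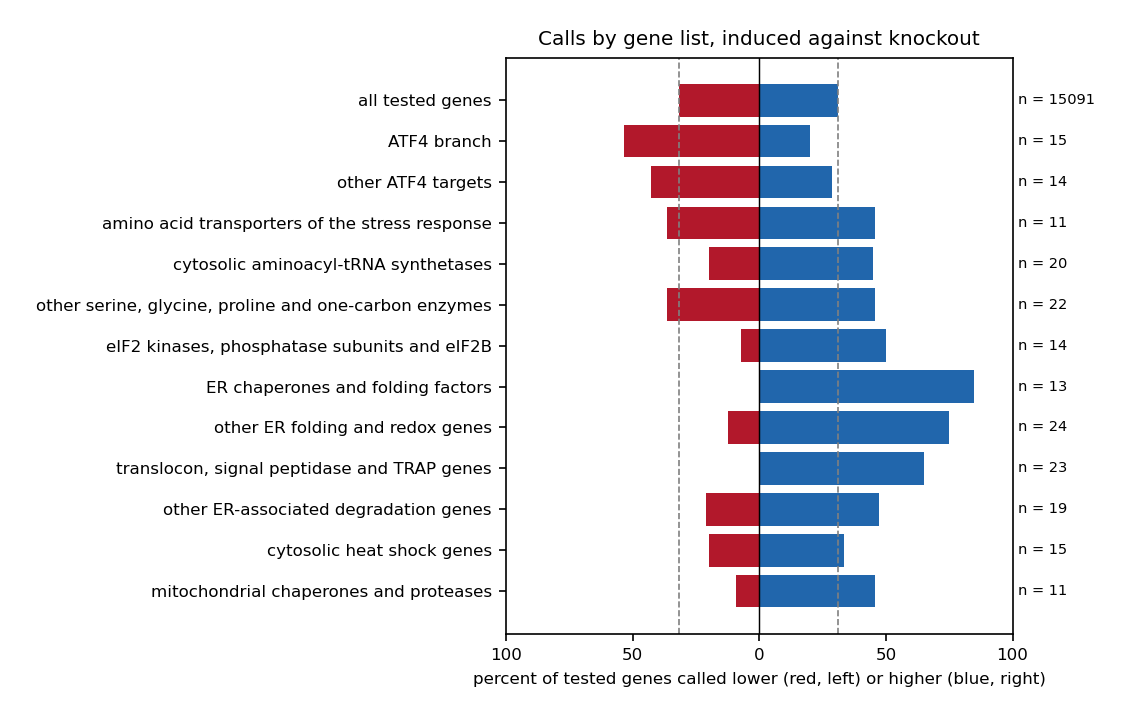
Percent of the tested genes of each list that were called lower (red, to the left) or higher (blue, to the right) in the induced libraries at an adjusted p of 0.05, with the number tested at the right; dashed lines mark the shares of all tested genes, 31.6% and 31.0%. In the ER folding and translocon lists 65.2% to 84.6% were called higher. Passing the right dashed line was not particular to them. The eIF2 list (7 of 14 genes), other ER-associated degradation genes (47.4%) and the tRNA synthetases (9 of 20 genes) passed it too. So did amino acid transporters, other one-carbon enzymes and mitochondrial chaperones and proteases (45.5% each), and cytosolic heat shock genes (33.3%). The ATF4 branch had 53.3% lower and 20.0% higher, and the 14 other ATF4 targets 42.9% lower and 28.6% higher. Amino acid transporters and other one-carbon enzymes, with 36.4% lower each, also passed the left line.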

How the data were processed

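The authors deposited raw read counts per gene for each of the 6 libraries. Libraries were made with a stranded mRNA kit, per the labels' protocols, and bcl2fastq, STAR and DESeq2 with mm10 are named in the submitters' processing notes; their versions and the counting annotation are not stated there. Counts from the reverse-strand column were used, which held 96.2% to 96.3% of stranded gene reads. Rows naming no gene (15.1% to 17.6% of reads, among them the multimapped reads, 6.79% to 7.66%) were left out, which lowers genes with near-identical copies. Of 55471 identifiers, 55230 were named from GENCODE M21 (GRCm38).

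Genes passing filterByExpr were scaled by TMM and fitted with edgeR 4.0.16 (R 4.3.3; quasi-likelihood, group as the only term, two-sided), with Benjamini-Hochberg adjustment over all 15091 tested genes and a threshold of 0.05. SE is the fold change's size over the square root of F. On simulated counts for this comparison, 79.4% of 97 genes changed 1.5-fold and 92.6% of 94 changed 2-fold were recovered among 14848 genes. Far fewer genes were changed in the simulation than the 62.6% that passed in the data. No fold below 1.5 was simulated, so the recovery does not cover the chaperones, whose largest change was 1.40-fold (Dnajc3). Alternatives used DESeq2 1.42.0 and limma 3.58.1 as well.

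The members and lists were chosen with earlier results of these data known. Values in every library are given for ATF4 branch and chaperone genes with a called log2 fold change of at least 0.5, for Atf4, Ddit3, Xbp1 and Hspa5, and for a member with a group mean under 1 CPM; other members so described were added after their values were seen. From each further list, up to 2 genes higher and 2 lower with the smallest p are named. Motif sites are shown for all members that hold one, and promoter sequence for the called member with the largest fold change; protein sequence was not used here. Promoter windows are RefSeq's for GRCm38.p6. The authors' own table of comparisons was not used.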

Additional observations from a re-analysis of the deposited data

How the results depend on the processing

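Over 15 alternatives, 491 of 525 fold changes of single members kept their direction and side of the threshold, 25 lost the call, 5 gained it and 4 changed sign; 9 members accounted for these changes. Mthfd2, which had not passed, had log2 fold changes of -0.0008 with upper-quartile factors, -0.0007 with at least 1 CPM in 3 libraries, -0.0603 without knockout replicate 2 and -0.0215 without induced replicate 3, and up to 0.0454 without knockout replicate 3. Other scalings, filters, tests, unstranded counts and an adjusted p of 0.01 left 3 ATF4 branch genes higher and 6 to 8 lower, and 9 to 11 chaperones higher. Leaving out each library in turn gave 3 higher and 6 to 8 lower in the ATF4 branch, and 9 to 11 higher and 0 to 1 lower among the chaperones; the 1 was Creld2, without induced replicate 1. The medians then ranged from -0.32 to -0.19 and from 0.15 to 0.26. Without the members on chromosome 15, an alternative chosen after seeing the data, 7 of the ATF4 branch were lower and 3 higher (median -0.28), and 11 chaperones were higher (median 0.22). With the replicate number as a block, 8 ATF4 branch genes were lower and 11 chaperones higher as before, and Atf6 passed (log2 fold change -0.14, adjusted p = 0.0492, edgeR). The deviations of same-numbered libraries had correlations of -0.0026, 0.0463 and 0.0398. These values cannot tell whether same-numbered libraries shared a culture or a preparation, which the labels do not state. Genes with few reads, such as Chac1 and Trib3, are limited by depth.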
